A study of Mus musculus with 7 samples.

Results

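Expression of 10 genes of the melanosome, the pigment organelle of melanocytes, was examined in mouse nucleus pulposus, the soft centre of the spinal disc, out of 19505 genes measured. The genes were taken by name from the platform annotation, which gives each of them 1 array feature. They were Mlana, Lrmda, Mitf, Gpnmb, Pmel, Tyr, Tyrp1, Dct, Oca2 and Mreg. Mlana and Lrmda were selected on their measured expression, for being lower in the knockout, so their genotype difference is described here without a test. The other 8 were chosen by their role in the melanosome, with earlier results of these data known, and were tested.

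RNA came from 4 wild-type animals (WT), aged 13 months, and 3 animals with a global knockout of the lactate exporter MCT4, encoded by Slc16a3 (MCT4KO), aged 14 months. Each array held tissue pooled from the lumbar and caudal discs of 1 animal, so the replicates are animals, and no treatment is given. The sample labels name the strain C57BL/6 throughout, whereas the series text gives the knockout animals as C57Bl/6N and the wild-type animals as C57Bl/6, and the breeding notes describe littermates of heterozygous crosses backcrossed to C57Bl/6N. Age, and possibly substrain, thus follow genotype and cannot be told apart from it. The deletion was in the whole animal, so a difference in the disc need not arise in disc cells alone. Values are log2 expression as deposited by the authors, and 5222 negative control features gave the background, with array medians of 5.91 to 6.08.

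Slc16a3 read 13.35 to 13.61 in WT and 4.47 to 5.02 in MCT4KO, below the control median of each knockout array. Some markers of nucleus pulposus were high in both genotypes. Krt19, a keratin of notochord-derived cells, averaged 17.17 in WT and 17.21 in MCT4KO, and Acan, the cartilage proteoglycan aggrecan, 17.92 and 18.11. Others read lower, such as Noto at 6.78 and 7.10. Col2a1 averaged 8.07 in WT and 9.38 in MCT4KO (limma adjusted p = 0.088). Every MCT4KO value of Col2a1 was above every WT value, as held for 5.66% of all genes. It was the 1 marker with an unadjusted p under 0.05. Of the 15 markers measured, 3 (Car12, Foxf1 and Basp1) lay at or below the control median on every array, and the notochord factor T was not analysed here.

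Melanosomes are lysosome-related organelles that mature in stages. Pmel forms the fibrils on which pigment is laid down, Mlana is a membrane protein that binds Pmel and assists its maturation, and the enzymes Tyr, Tyrp1 and Dct make melanin. Mitf, a basic helix-loop-helix leucine zipper transcription factor, switches these genes on in melanocytes and also acts in osteoclasts and mast cells, while Gpnmb, a glycoprotein related to Pmel, is also made by macrophages, osteoclasts and osteoblasts.

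The 10 genes split into a measurable set and a set at background. Mlana, Lrmda, Mitf and Gpnmb lay above the control median of the array on all 7 arrays, as did 50.4% of all genes. Tyr, Tyrp1, Dct, Oca2 and Mreg lay at or below it on all 7, as did 39.1% of all genes, and Pmel lay above it on 1 array. None of the 8 tested genes passed an adjusted p of 0.05 (limma, Benjamini-Hochberg over all genes), against 0.590% of all genes. At an unadjusted p under 0.05 Mitf and Gpnmb made 2 lower genes and Tyr 1 higher gene, where 6.90% of all genes were lower and 5.76% higher. A variant of the fit with a variance trend and robust estimation also called 0 of the 8.

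**Figure D1:**
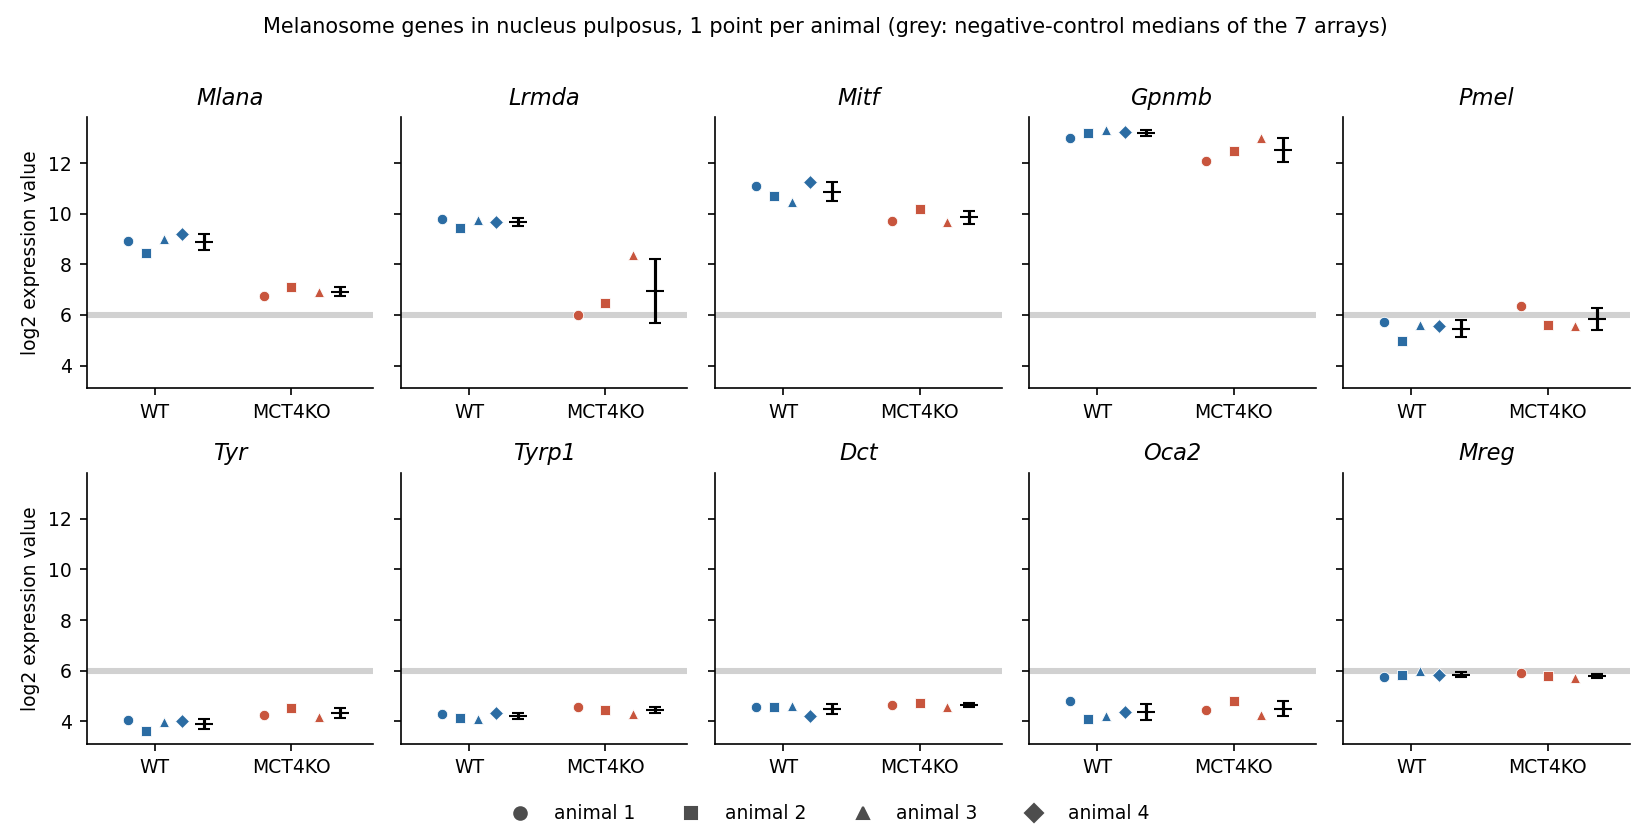
Deposited log2 expression of the 10 melanosome genes, 1 panel per gene, with 1 point per animal (blue WT, red MCT4KO) and the group mean with its SD beside the points; the grey band spans the control medians of the 7 arrays, 5.91 to 6.08. Mlana, Mitf and Gpnmb sit above the band in every animal, as does Lrmda except in MCT4KO 1, whose 6.01 lies inside the band and just above that array's own control median of 5.99. Of the other genes a single point, Pmel in MCT4KO 1 at 6.35, lies above it.

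The melanin-making enzymes gave no signal above background in either genotype. Tyr, tyrosinase, which carries out the rate-limiting step, read 4.05, 3.60, 3.96 and 3.99 in animals 1 to 4 of the WT group and 4.25, 4.54 and 4.15 in animals 1 to 3 of the MCT4KO group, the order used below for each gene. Every MCT4KO value was above every WT value, as held for 5.66% of all genes, but all 7 exceeded between 6.15% and 20.6% of the negative controls, so no fold is given (limma adjusted p = 0.33). Tyrp1, which acts late in the synthesis of brown-black pigment, ran from 4.10 to 4.33 in WT and from 4.30 to 4.56 in MCT4KO. Dct, the dopachrome tautomerase, ran from 4.20 to 4.61 in WT and from 4.58 to 4.71 in MCT4KO, and the groups overlapped for both genes.

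Of the remaining genes at background, Oca2, a melanosomal membrane transporter that influences the pH of the organelle, ran from 4.09 to 4.80 in WT and from 4.24 to 4.81 in MCT4KO. Mreg, melanoregulin, which takes part in moving lysosome-related organelles, stayed just under the control median in every animal, with WT readings of 5.73, 5.82, 5.98 and 5.81 and MCT4KO readings of 5.89, 5.78 and 5.71. Pmel read 5.71, 4.98, 5.59 and 5.58 in WT and 6.35, 5.62 and 5.58 in MCT4KO. The groups overlapped for all 3 genes, and their adjusted p ran from 0.52 to 0.92.

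The windows upstream of these enzymes are shown because they hold the sequence that Mitf is known to bind, and windows of 3 measurable members are printed with them. RefSeq promoters (GRCm38.p6) were in the table for 8 of the 10 genes, in 11 windows, and Mlana and Pmel had none. The 250 bases before each annotated start were searched on both strands for the E-boxes CACGTG and CATGTG and for TCATGTG, the core of the longer M-box, which contains CATGTG. Capitals mark a match, on either strand.
Tyr chr7:87493513-87493762 minus strand: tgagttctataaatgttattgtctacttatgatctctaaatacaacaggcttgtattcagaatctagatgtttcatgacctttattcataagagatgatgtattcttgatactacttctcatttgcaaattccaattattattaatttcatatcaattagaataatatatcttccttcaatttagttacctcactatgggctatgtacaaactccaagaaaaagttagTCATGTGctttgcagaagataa
Tyrp1 chr4:80833963-80834212 plus strand: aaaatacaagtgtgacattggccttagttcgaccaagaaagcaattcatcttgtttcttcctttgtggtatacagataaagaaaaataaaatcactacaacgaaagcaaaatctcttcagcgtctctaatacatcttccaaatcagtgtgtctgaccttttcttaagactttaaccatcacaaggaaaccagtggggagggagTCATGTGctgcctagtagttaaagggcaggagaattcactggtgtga
Dct chr14:118052247-118052496 minus strand: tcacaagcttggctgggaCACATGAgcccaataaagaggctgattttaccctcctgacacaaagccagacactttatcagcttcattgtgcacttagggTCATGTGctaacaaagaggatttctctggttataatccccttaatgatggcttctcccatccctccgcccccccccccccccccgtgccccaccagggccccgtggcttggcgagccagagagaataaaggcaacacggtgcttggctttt
Lrmda chr14:22019462-22019711 plus strand: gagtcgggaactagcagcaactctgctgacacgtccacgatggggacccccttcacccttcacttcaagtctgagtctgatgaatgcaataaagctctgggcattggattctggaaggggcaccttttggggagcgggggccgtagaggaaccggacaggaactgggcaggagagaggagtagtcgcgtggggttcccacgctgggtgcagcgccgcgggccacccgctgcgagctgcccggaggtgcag
Gpnmb chr6:49036268-49036517 plus strand: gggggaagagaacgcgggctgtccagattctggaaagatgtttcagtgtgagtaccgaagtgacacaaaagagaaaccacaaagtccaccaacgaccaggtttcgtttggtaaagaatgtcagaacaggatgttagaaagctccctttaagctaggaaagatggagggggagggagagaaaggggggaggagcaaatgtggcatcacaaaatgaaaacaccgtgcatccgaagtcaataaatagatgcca
Mitf chr6:97991533-97991782 plus strand: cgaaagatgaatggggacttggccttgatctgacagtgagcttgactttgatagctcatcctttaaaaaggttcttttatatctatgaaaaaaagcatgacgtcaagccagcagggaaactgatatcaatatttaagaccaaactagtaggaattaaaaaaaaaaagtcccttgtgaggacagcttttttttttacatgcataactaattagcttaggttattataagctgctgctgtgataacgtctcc

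The M-box core was in the windows of Tyr, Tyrp1 and Dct, against 3.25% of 32851 windows. The windows of these enzymes were shown for holding it, so that share is given for scale and is no test. The core started 22 and 47 bases before the start in Tyr and Tyrp1 and at 232 and 151 bases in Dct. Oca2 held CATGTG without the M-box core, and CATGTG was in 12.3% of all windows. The windows of Lrmda and Gpnmb and all 3 windows of Mitf, of which the one nearest the end of the gene is printed, held none of these letters, nor did either window of Mreg, a gene at background. No member window held CACGTG, which 6.02% of all windows did. Tyr, Tyrp1 and Dct were at background in all 7 animals, as were Oca2 and Mreg, without the M-box core, and 39.1% of all genes. A link between the M-box core and expression was not tested. A match describes letters in a window and not occupancy, and the array gives 1 value per gene, which does not separate the start sites of Mitf.

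Mlana was lower in every MCT4KO animal. The WT animals read 8.93, 8.43, 9.01 and 9.19, and the MCT4KO animals 6.74, 7.10 and 6.92. The groups were separated by 1.33, the distance from the lowest WT to the highest MCT4KO value, while WT spanned 0.75 and MCT4KO 0.36. Mlana was selected for being lower in MCT4KO on these same values, so the gap describes that choice and is no test. The mean was 8.89 ± 0.322 (SD, n = 4) in WT and 6.92 ± 0.182 (SD, n = 3) in MCT4KO, a difference of -1.97 ± 0.190 (SE), or 3.92-fold. The MCT4KO values stayed above the control median but exceeded only 64.3% to 71.4% of the negative controls, compared with 87.5% to 92.1% for the WT values. Both groups thus lay within the range of the negative controls. The fold rests on MCT4KO values nearer the control median than the WT values.

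Lrmda, also selected for being lower in MCT4KO, was lower in all 3 MCT4KO animals but by unequal amounts. Lrmda encodes a leucine-rich repeat protein of melanocyte differentiation that is mutated in a form of human oculocutaneous albinism. The WT animals read 9.81, 9.45, 9.76 and 9.66, and the MCT4KO animals 6.01, 6.46 and 8.38, so that WT spanned 0.36 and MCT4KO 2.36. MCT4KO 1 exceeded 50.3% of its negative controls and MCT4KO 3 exceeded 87.2%, so the fold rests in part on a value close to the control median. The difference of the means was -2.72 ± 0.457 (SE), 6.59-fold, and was -3.43 without MCT4KO 3 and -2.25 without MCT4KO 1. The animal with the highest Lrmda in the knockout was therefore not the animal with the highest Mlana, which was MCT4KO 2.

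Mitf had a lower mean in MCT4KO, but the difference did not pass the test. The WT animals read 11.11, 10.71, 10.46 and 11.24, and the MCT4KO animals 9.70, 10.17 and 9.69. Every MCT4KO value was below every WT value, as held for 6.37% of all genes, with 0.29 between the groups. The difference was -1.03 ± 0.213 (SE), a 2.04-fold lower level with a 95% interval of 1.46 to 2.84 (limma adjusted p = 0.075), and the adjusted p ran from 0.054 to 0.28 over 15 alternative analyses.

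Among the 4 measurable genes, Gpnmb was the one whose groups met. The WT animals read 13.01, 13.19, 13.33 and 13.23, and the MCT4KO animals 12.09, 12.47 and 13.01, so that MCT4KO 3 was level with the lowest WT animal. The difference was -0.67 ± 0.206 (SE), a 1.59-fold lower level with a 95% interval of 1.15 to 2.18 (limma adjusted p = 0.23). It was -0.45 without MCT4KO 1 and -0.91 without MCT4KO 3. MCT4KO 3 thus had the highest value of the knockout animals for both Gpnmb and Lrmda, but not for Mitf or Mlana.

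**Figure D2:**
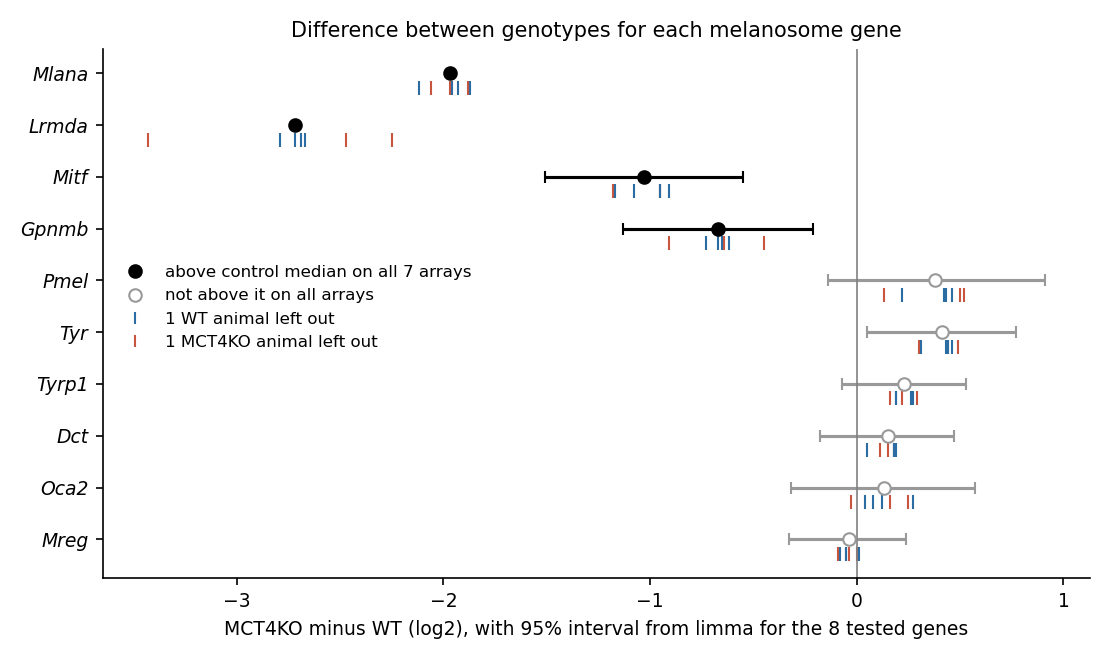
Difference of mean log2 expression, MCT4KO minus WT, for the 10 melanosome genes, with 95% intervals from limma (horizontal bars) for the 8 tested genes and none for Mlana and Lrmda, which were selected for their difference; filled circles are genes above the control median on all 7 arrays, and ticks under each point give the difference with 1 animal left out. Leaving out single animals moves Lrmda between -3.43 and -2.25 and Gpnmb between -0.91 and -0.45.

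Markers of cells that could carry these genes were read beside them. Of 9 melanocyte markers that are not among the 10 genes, 8 were at or below the control median on every array, including Sox10, Slc45a2, Mc1r and Kit, and the ninth, Pax3, averaged 5.85 in WT and 6.09 in MCT4KO. Summed over the 9 markers, the log2 values came to between 40.5 and 41.5 per WT animal and between 41.1 and 42.5 per MCT4KO animal. In bulk tissue, fewer cells of a type and less RNA per cell cannot be told apart.

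For Gpnmb and Mitf, markers of macrophages, osteoclasts and osteoblasts were read. No list of mast cell markers was read, although Mitf also acts in those cells. Of 12 macrophage markers, 4 (Adgre1, C1qa, C1qb and C1qc) were at background in both groups and 2 (Itgam and Lyz2) in MCT4KO alone. Their summed value was 73.2 to 80.7 in WT and 72.1 to 75.1 in MCT4KO, which overlapped. Csf1r, the receptor for macrophage colony-stimulating factor, averaged 10.97 in WT and 11.13 in MCT4KO. Lyz2, lysozyme, averaged 7.56 and 4.79 (limma adjusted p = 0.24) and Itgam, an integrin of myeloid cells, 5.09 and 3.91 (limma adjusted p = 0.29). For both genes every MCT4KO value was below every WT value, as held for 6.37% of all genes. Lyz2 was highest in WT 2 and WT 1, at 9.92 and 8.49, and Itgam in WT 2, at 6.32. Fcgr1 went the other way, averaging 5.91 and 6.56 (limma adjusted p = 0.24). Its MCT4KO values were all above its WT values, as held for 5.66% of all genes. Of 11 osteoclast markers, 5 (Oscar, Calcr, Atp6v0d2, Dcstamp and Ocstamp) were at background in both groups and 2 (Acp5 and Mmp9) in MCT4KO alone. The osteoclast sums were 63.2 to 65.9 in WT and 62.3 to 65.0 in MCT4KO, and Ctsk, the protease cathepsin K, averaged 11.33 and 11.23. No marker of either list passed the limma test. An unadjusted p under 0.05 was reached by 2 lower and 1 higher macrophage markers and by 0 osteoclast markers, where 6.90% of all genes were lower and 5.76% higher.

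Of 7 osteoblast markers measured, 5 (Bglap, Bglap2, Alpl, Sp7 and Dmp1) were at background in both groups, and 0 passed the limma test. Ibsp, bone sialoprotein, read 10.95, 9.89, 9.75 and 10.74 in WT and 8.11, 9.65 and 7.43 in MCT4KO. Every MCT4KO value of Ibsp was below every WT value, as held for 6.37% of all genes. Its difference was -1.94 ± 0.485 (SE; limma adjusted p = 0.14), while Col1a1, a chain of type I collagen, had 0.31 ± 0.257 (adjusted p = 0.64). Ibsp and Alpl were the 2 lower at an unadjusted p under 0.05. The osteoblast sums were 42.0 to 46.4 in WT and 39.6 to 44.2 in MCT4KO, which overlapped, and Runx2 and Spp1 were not analysed here. The part of macrophages, osteoclasts or osteoblasts in the Gpnmb and Mitf values was not tested.

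Of 12 neutrophil markers 0 passed the limma test, and 4 were lower at an unadjusted p under 0.05, where 6.90% of all genes were. All 12 had a mean difference below 0, as did 47.0% of all genes, and 7 of them (S100a8, Ngp, Ltf, Camp, Retnlg, Mmp8 and Csf3r) were at background in MCT4KO alone. WT 1 and WT 2 stood highest: the mean log2 value over the 12 markers was 7.63 in WT 1 and 9.75 in WT 2, against 6.03 in WT 3 and 6.33 in WT 4, and 5.30 to 5.93 over the knockout animals. Without WT 1 and WT 2 the differences were -2.18 for Mlana, -2.76 for Lrmda, -1.0 for Mitf and -0.76 for Gpnmb, beside -1.97, -2.72, -1.03 and -0.67 over all animals.

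Genes of the wider melanosome machinery stayed short of the test's threshold. Of 87 measured genes in 6 lists around the organelle, 0 passed the test (limma), against 0.590% of all genes, and an unadjusted p under 0.05 was reached by 5 lower and 0 higher genes, against 6.90% and 5.76% of all genes. The fit with a variance trend also called 0. The median difference over the 87 genes was -0.05, beside 0.02 over all genes. It was -0.049 over the 10787 genes averaging at or above the control median. Of the 87, 22 were at background in both groups.

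Among 12 genes of pigment chemistry and ion transport, 8 were at background in both groups and the median was 0.03. Of the measurable ones Tpcn2, a lysosomal and melanosomal cation channel, had the smallest p, at 0.28 ± 0.208 (adjusted p = 0.60). Of 28 genes that sort cargo to melanosomes, 3 were at background in both groups, and the list had a median of -0.04. Bloc1s5, a subunit of the BLOC complex for lysosome-related organelles, had a difference of -0.35 ± 0.153 (adjusted p = 0.39). Rab32, a small GTPase of the same route, was at background in both groups.

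Among 12 genes of melanosome movement the median was -0.02. Myrip, which links Rab27a on the organelle to myosin motors, had the largest difference of the list. It read 9.22, 9.30, 9.09 and 9.34 in WT and 8.26, 8.28 and 8.95 in MCT4KO, a difference of -0.74 ± 0.184 that did not pass (adjusted p = 0.14). Like Lrmda and Gpnmb it was highest, among knockout animals, in MCT4KO 3.

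The Commander complex, an endosomal recycling assembly, had a median of -0.17, with 14 of 16 genes below 0. The share over all genes, those at background included, was 47.0%. Only 1 Commander gene was at background in both groups, and genes averaging at or above the control median had a median of -0.049. Its single differences were small: Commd5, 1 of its COMMD subunits, had -0.32 ± 0.142 and Dennd10, another subunit, -0.26 ± 0.124 (adjusted p = 0.39 and 0.42). Of the 9 measured signals of the melanocyte lineage, 7 were at background in both groups, Ednrb and Tfap2a among them. Of 10 relatives and regulators of Mitf, 8 were below 0 with a median of -0.09. Rragb, a Rag GTPase that recruits Mitf relatives to the lysosome, had -0.64 ± 0.187 (adjusted p = 0.20), and Flcn, folliculin, a regulator of Rag GTPases, -0.39 ± 0.182 (adjusted p = 0.42).

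**Figure D3:**
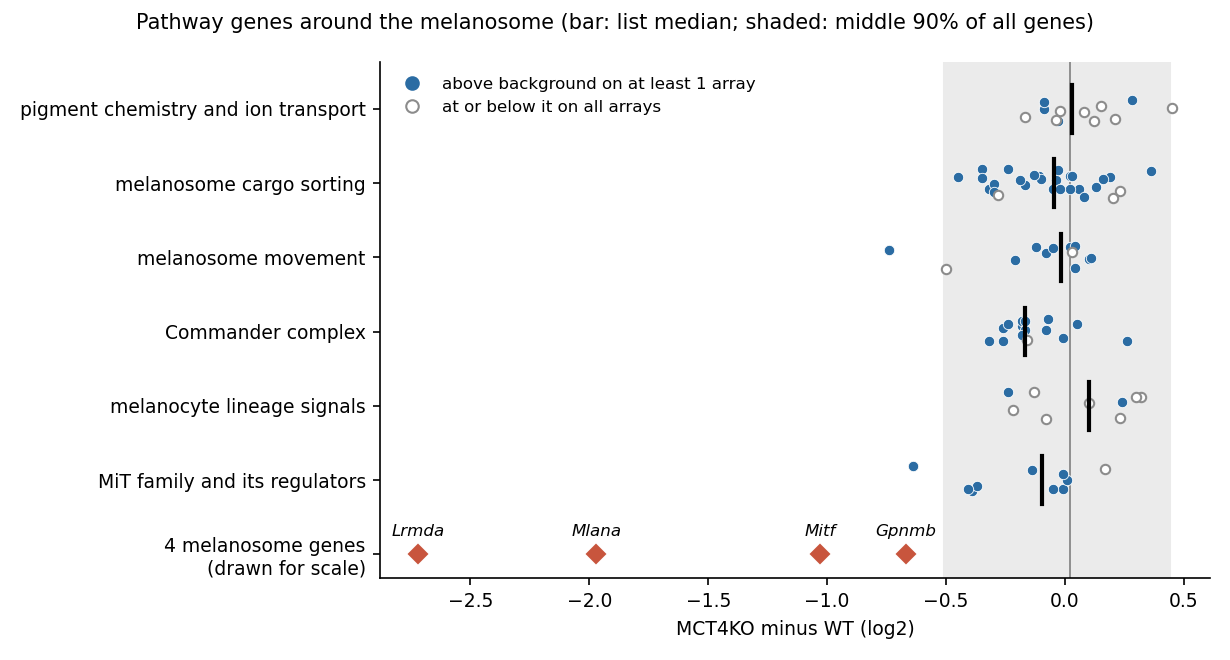
Difference of mean log2 expression, MCT4KO minus WT, for each gene of the 6 pathway lists (points; open points lie at or below the control median on all arrays), with the list median as a black bar and the middle 90% of all genes shaded, from -0.51 to 0.44. The list medians run from -0.17 to 0.10; the red diamonds in the lowest row are drawn for scale only, since Mlana and Lrmda were selected for their difference.

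None of the 12 genes beside Mlana and Lrmda on their chromosomes passed the limma test, and 1, E330034G19Rik, had an unadjusted p under 0.05. Mlana lies on chromosome 19 and Lrmda on chromosome 14 of the RefSeq table (GRCm38.p6), which was used for gene order. Next to Mlana, Ermp1, an endoplasmic reticulum peptidase, had -0.47 ± 0.228 (adjusted p = 0.43) and 9930021J03Rik -0.20 ± 0.172 (adjusted p = 0.65). Farther out, Ric1 had 0.09 and Ranbp6 -0.22, and Pdcd1lg2 and Il33 were at background in both groups. Next to Lrmda, Zfp503, a zinc finger repressor, had -0.36 ± 0.189 (adjusted p = 0.47) and Dlg5, a scaffold protein, -0.11 ± 0.178 (adjusted p = 0.84). Comtd1, Vdac2 and Polr3a had -0.14, 0.02 and -0.17, and E330034G19Rik, at background in WT, had means of 4.90 and 5.76 (adjusted p = 0.20).

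The genes with the profile nearest to Mlana were found by centring each gene on its WT mean and taking the root mean square difference over the 7 animals, among 11407 genes. They were Fam135b (0.225), Ccnd2, a D-type cyclin (0.318), Foxp1, a forkhead factor (0.337), Osbp2, an oxysterol-binding protein (0.338), and Entpd4, an organelle nucleotidase (0.341). Fam135b read 12.86, 12.59, 12.74 and 12.79 in WT and 10.59, 11.37 and 10.67 in MCT4KO. Ccnd2, picked on these same values, was like Mlana lowest among WT in WT 2, at 7.95, and highest in WT 4, at 8.73. Within the knockout it was highest in MCT4KO 3, at 7.27, whereas Mlana was highest in MCT4KO 2.

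Nearest to Lrmda were Slc7a8, an amino acid transporter (0.579), Gabrb2, a GABA-A receptor subunit (0.656), and Azgp1, a secreted glycoprotein (0.773). Serpina1b (0.788) and Tmem176a (0.793) followed. Slc7a8, picked on these same values, read 5.78, 7.05 and 7.67 in the knockout animals, the same order of animals as Lrmda. In WT it ran from 8.70 to 10.02, while Lrmda ran from 9.45 to 9.81. Lrmda ranked 283rd by likeness to Mlana, and Mlana 9th by likeness to Lrmda. The distances to Lrmda were larger throughout. Genes chosen this way carry the genotype difference by construction, and likeness among animals of a group was part of the choice too.

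**Figure D4:**
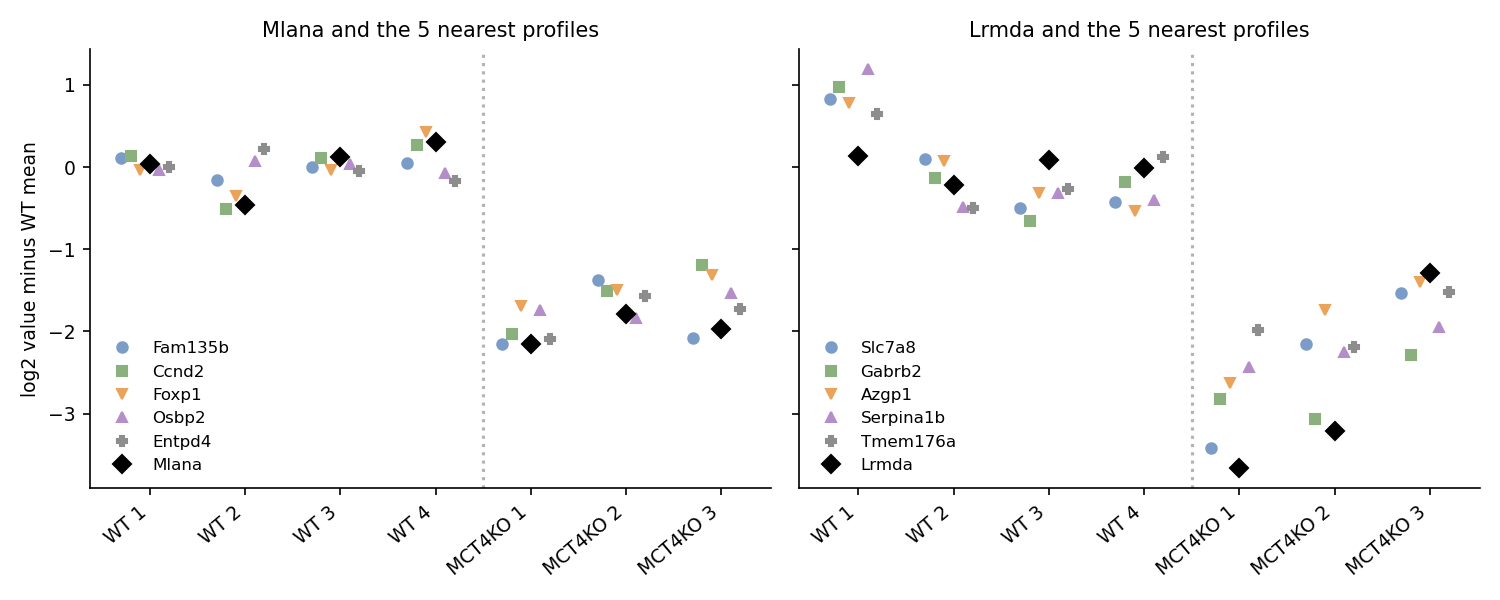
Log2 expression minus the WT mean of each gene in the 7 animals (horizontal axis, WT left of the dotted line), for Mlana and Lrmda (black diamonds) and the 5 genes nearest to each (coloured). The genes near Mlana differ from it by 0.225 to 0.341 (root mean square) and lie below their WT mean in all 3 MCT4KO animals, whereas Lrmda runs from 6.01 in MCT4KO 1 to 8.38 in MCT4KO 3 before centring.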

How the data were processed

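Total RNA of nucleus pulposus from 7 mice was labelled with biotin and hybridised to Affymetrix arrays, 1 array per animal. The authors deposited 1 log2 value per feature and array, and the submitters' processing notes name Affymetrix Expression Console 1.4.1. The background correction and the normalization are not stated there, and the log2 scale is read from the values (2.44 to 19.41). The highest values lie beyond a plain scanner reading on that scale, so fold changes hold on the deposited scale.

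Of 28846 features, 19572 carried 1 gene symbol. Symbols were updated by gene identifier through a RefSeq table, and for 55 genes with several features the one with the highest mean was kept, leaving 19505 genes. MCT4KO was compared with WT in limma 3.58.1 (R 4.3.3; lmFit and eBayes, no covariate, two-sided, Benjamini-Hochberg over all genes), which was tested on simulated data. A group counted as at background for a gene if no array of the group exceeded the median of its own negative controls, and no fold is given where both groups did so. Precision is limited by the number of arrays, with a median standard error of 0.167.

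The 10 genes, the lists and the tests were chosen with earlier results of these data known. In each list the text names every gene past the test and up to 2 others with the smallest p (6 pathway lists), 3 protein-coding neighbours on each side, and the 5 nearest profiles, the last without predicted genes and Rik clones. Genes absent from the annotation, such as Asip and Zeb2, were not analysed here. The alternatives tried were a quantile normalization, centring on array medians, a filter on low values, averaging features, raising values to the control median, a variance trend, leaving out animals and a replicate block. Of the other marker lists, Schwann and glial, epidermis and muscle markers had median differences of 0.02, 0.21 and 0.20 with 0 genes called in each by limma and 1, 2 and 1 at an unadjusted p under 0.05. Sequences are from RefSeq (GRCm38.p6).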

Additional observations from a re-analysis of the deposited data

Results flagged for a closer look

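Among 34 genes examined in the 4 WT animals, 3 had an animal standing apart from the others, where chance alone flags about 1 in 20. Dct read 4.20 in WT 4, while the others lay between 4.58 and 4.61, all below the control median. Tspan10, a tetraspanin of the pigment list, read 5.11 in WT 4 and 4.21 to 4.31 in the others, also below background. Dennd10 read 13.30 in WT 1 and 13.12 in each of the others, and without WT 1 its difference kept its sign.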

How the results depend on the processing

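Under all 15 alternatives 0 of the tested melanosome genes and 0 of the pathway genes passed the threshold. The filter on low values kept only 2 of the 8 melanosome genes and 62 of the 87 pathway genes, and the others were not tested there. Mlana, Lrmda, Mitf and Gpnmb kept their sign in all 15, but Mlana and Lrmda were selected for that sign. Where the groups do not overlap, as for Mlana, Lrmda and Mitf, leaving out animals cannot turn it. With 1 animal left out Mlana ran from -2.12 to -1.87, Lrmda from -3.43 to -2.25, Mitf from -1.18 to -0.91 and Gpnmb from -0.91 to -0.45. The replicate block (0 members and 0 pathway genes called; Mitf -0.91, adjusted p = 0.20) drops WT 4, which has no partner, and the numbers do not pair the animals, since the deviations of same-numbered animals correlated at -0.13, 0.02 and 0.05 across genes. Signs turned, all for differences that had not passed, with 1 animal left out for Oca2 (-0.03 to 0.27), Mreg (-0.09 to 0.01), Ric1 (-0.05 to 0.19), Il33 (-0.07 to 0.23), Vdac2 (-0.19 to 0.13), Dlg5 (-0.23 to 0.11) and Polr3a (-0.40 to 0.07). They also turned for Il33 with quantile normalization (-0.02) and for Vdac2 with the replicate block (-0.02). The cause was not tested. The number of genes called over the whole array ran from 6 with the block to 164 without genes below the control median, against 115.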

Other observations

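Some deposited values were identical on several arrays. Dct had the same value, 4.58, in WT 1, WT 2 and MCT4KO 3, and Tyrp1 the same value, 4.30, in WT 1 and MCT4KO 3, to the last decimal deposited. Such ties occurred in 13.9% of the 7633 genes at or below the control median on every array and in 5.61% of the 9837 genes above it on every array. Mlana, Lrmda, Mitf and Gpnmb had none.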
